A study of Mus musculus with 12 samples.

Results

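The liver X receptors (LXRs) and a set of genes linked to them in cholesterol efflux and lipoprotein handling were followed by RNA sequencing in mouse bone marrow-derived macrophages (BMDMs). The 9 genes were taken by symbol from 24421 in the count table: the receptors Nr1h2 and Nr1h3, the transporters Abca1 and Abcg1, the ubiquitin ligase gene Mylip, the apolipoprotein genes Apoe and Apoc2, and Lpl and Pltp, whose products act on lipoproteins. All 9 passed the filter on low counts, which left 11468 genes for testing. Marrow of C57BL/6 mice was grown in M-CSF at 100 ng/mL for 5 days, with fresh medium on day 3. Cells then received the BET bromodomain inhibitor I-BET151 (iBET) at 5 µM or its vehicle DMSO (5% in the labels), and either ovalbumin alone (Ova) or immune complexes of ovalbumin with polyclonal rabbit antibody to it (IC), for 4 h. The sources used here differ on whether iBET went in with the stimulus or shortly before it. This gave 4 groups of 3 libraries (DMSO with Ova, DMSO with IC, iBET with Ova, iBET with IC), and each of 3 mice (A, B and C) gave 1 library to every group, so differences between mice cannot be told apart from differences between their cultures.

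LXRβ, encoded by Nr1h2, and LXRα, encoded by Nr1h3, are nuclear receptors that bind oxysterols and act as heterodimers with retinoid X receptors on DNA elements in their target genes. In macrophages their targets include the pumps that load cholesterol onto lipoproteins, and the enzymes and apolipoproteins that remodel the particles outside the cell. BET proteins bind acetylated histones and assist transcription, and immune complexes engage Fc gamma receptors.

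The libraries held between 7.55 M and 17.4 M counts. The ribosomal precursor transcript Rn45s accounted for 77.4% of mouse A's DMSO Ova library, where 1.77 M counts fell on other genes, and for at most 7.83% of the other 11. Levels are CPM (counts scaled to a common library size by TMM), and values for a group are the mean ± SD of its 3 mice. The 7 macrophage markers summed to between 5969 and 7948 CPM. Markers of neutrophils, T cells, B cells, dendritic cells, erythroid cells and stromal cells or adipocytes each summed to at most 9.62 CPM in every library. The 4 hepatocyte markers Alb, Apoa1, Ttr and Fgb, from a tissue rich in apolipoprotein RNA, were listed at 0 throughout.

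Levels can be compared between genes only per length, here as CPM per kilobase of merged exons. In DMSO Ova, Lpl was the most abundant of the 9 at 370 ± 38.5 CPM per kilobase. Apoe followed at 282 ± 310 and Pltp at 157 ± 23.1, and the ranges of Lpl and Apoe, and of Apoe and Pltp, overlapped. Abcg1, Mylip, Abca1 and Nr1h2 formed a group whose means lay between 18.8 and 20.2, each overlapping the next. Nr1h3 at 5.16 ± 1.98 and Apoc2 at 2.86 ± 1.51 lay apart below them. With iBET the order of the lower genes was different. In iBET Ova, Mylip (30.7 ± 2.15) and Nr1h2 (25.9 ± 0.70) separated upwards from Abcg1 (17.5 ± 2.09) and Abca1 (17.3 ± 4.56), and Nr1h3 (1.91 ± 0.49) came last and overlapped Apoc2 (2.52 ± 1.01). In DMSO IC Nr1h3 stood at 9.14 ± 1.67 CPM per kilobase, and in iBET IC at 2.28 ± 0.61.

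**Figure D1:**
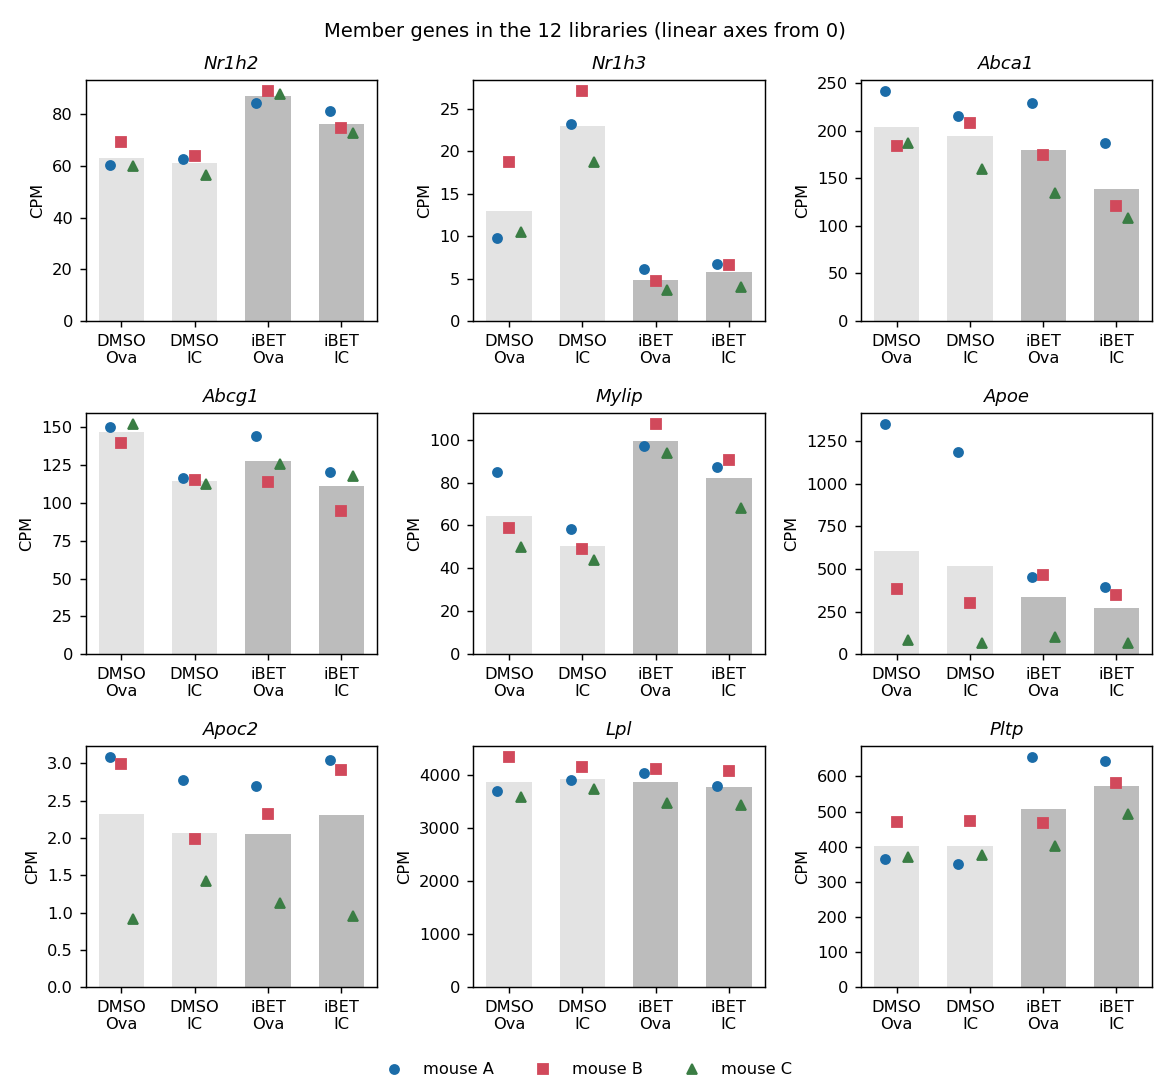
Level of each of the 9 genes (CPM, linear axes from 0) in the 12 libraries, by group. Bars are means of 3 mice and the markers are the libraries of mice A, B and C. Nr1h3 lies below 7 CPM in all 6 iBET libraries and between 9.76 and 27.1 CPM in the 6 DMSO libraries, and Apoe is highest in the DMSO libraries of mouse A.

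Changes were tested in edgeR's quasi-likelihood model over all 11468 genes, and a gene was called where its Benjamini-Hochberg adjusted p was under 0.05. With iBET against DMSO in Ova, 3 of the 9 genes were called, Nr1h2 and Mylip higher and Nr1h3 lower. In IC 4 were called, the same 3 in the same directions and Pltp, higher. The background was wide: of all genes tested, 31.3% were called with iBET in Ova (17.1% higher and 14.2% lower) and 34.8% in IC (19% higher and 15.8% lower), so the number of members called was near the background share. The median log2 fold change of the 9 was -0.03 in Ova and -0.05 in IC, beside 0.02 and 0.00 over all genes. For IC against Ova none of the 9 was called in DMSO, where 1.22% of all genes were, or in iBET, where 0.349% were (2 and 0 of the 9, respectively, at an unadjusted p under 0.05).

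**Figure D2:**
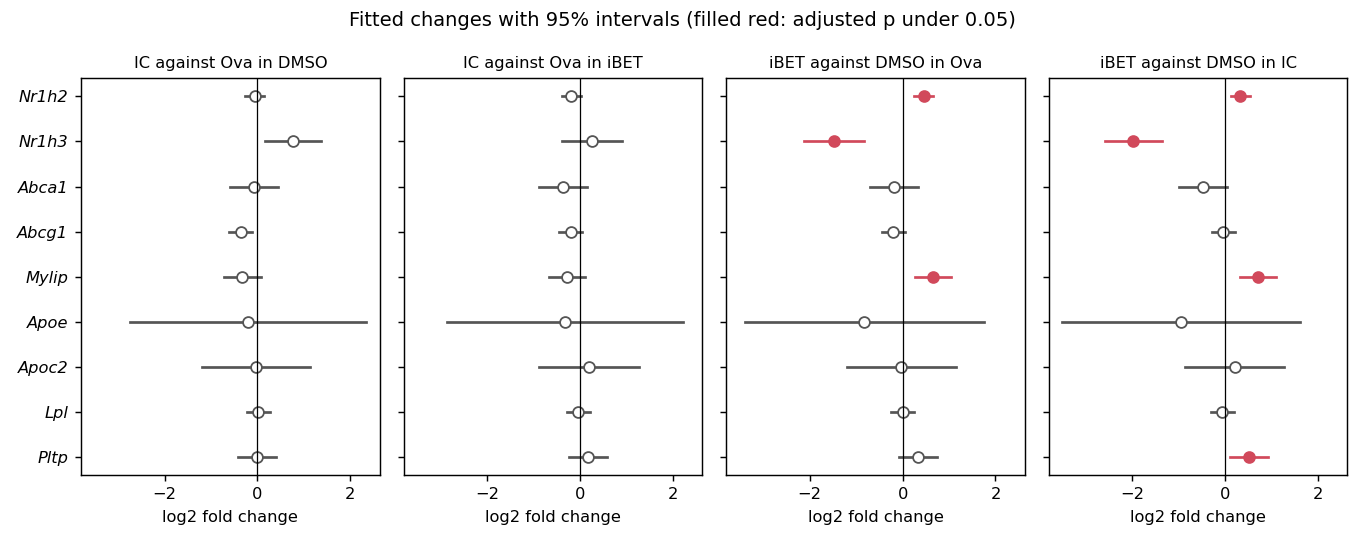
Log2 fold change of each gene in the 4 comparisons, with its 95% interval from edgeR without mouse as a term. Filled red points have an adjusted p under 0.05, 3 of 9 with iBET in Ova and 4 of 9 in IC. The intervals of Apoe span several log2 units and those of Lpl lie within 0.31 of 0.

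The receptor genes moved in opposite directions with iBET. Nr1h3 fell to 0.36 times its DMSO level in Ova and to 0.25 times in IC, and Nr1h2 rose 1.37-fold and 1.25-fold. Nr1h3 stood at 9.76, 18.7 and 10.4 CPM in mice A, B and C in DMSO Ova and at 6.10, 4.74 and 3.61 in iBET Ova. In DMSO IC it was at 23.2, 27.1 and 18.7 CPM, and in iBET IC at 6.67, 6.59 and 3.96. These levels rest on 19 to 276 counts per library, with 19 in mouse A's DMSO Ova library. Mouse C's iBET libraries held 32 (Ova) and 33 (IC). Every iBET library lay below every DMSO library, and mouse B had the highest Nr1h3 of the DMSO libraries in each stimulation. The log2 fold change with iBET was -1.47 (SE 0.30, adjusted p 0.0026) in Ova and -1.98 (SE 0.28, adjusted p 0.00021) in IC. Both calls (adjusted p 0.0202 or lower) held in each of the 12 fits without 1 library, and in Ova Nr1h3 missed the threshold without mouse B (0.0971).

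Nr1h2 was at 60.1, 69.2 and 59.9 CPM in DMSO Ova and at 84.3, 88.8 and 87.7 in iBET Ova. In IC it was at 62.7, 63.7 and 56.2 CPM with DMSO and at 81.2, 74.5 and 72.8 with iBET. The groups did not overlap in either stimulation and the rise was seen in 3 of 3 mice. Its log2 fold change was 0.46 (SE 0.10, adjusted p 0.00308) in Ova and 0.32 (SE 0.09, adjusted p 0.0178) in IC. In IC its adjusted p passed the threshold no longer without mouse C's DMSO IC library (0.0691), mouse A's iBET IC library (0.0776) or any 1 mouse (0.0627 to 0.137), and in Ova not without mouse B (0.0516) or C (0.0697). Per kilobase, Nr1h2 lay above Nr1h3 in every group.

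In GRCm38/mm10, Nr1h2 lies at chr7:44549616-44553951 and Nr1h3 at chr2:91184061-91202834, both on the minus strand. Nr1h3 overlaps the annotated gene Gm13783 on its own strand. Gm13783 is not among the genes counted, so reads of the overlap cannot be told apart and the Nr1h3 counts are less certain. The target genes Abca1 (chr4:53030787-53159895, minus strand) and Mylip (chr13:45389742-45412022, plus strand) are LXR targets. The promoters of these 4 genes are shown because they set the receptor pair that moved in opposite directions beside a target that rose (Mylip) and an efflux target that did not (Abca1). Each runs from 250 bases before a RefSeq transcript start to 50 after it (GRCm38.p6, 5′ to 3′ on the gene's strand). Capitals mark the motifs searched on both strands: the nuclear receptor half-site AGGTCA, the E-box CACGTG, the TATA box TATAAA, the GC box GGGCGG, and the LXR element. The LXR element was taken as 2 copies of AGGTCA in the same orientation, 4 bases apart, with at most 3 mismatches in its 12 fixed bases, so that each of its copies is a half-site where it has no mismatch.
Nr1h3, chr2:91194986-91195285: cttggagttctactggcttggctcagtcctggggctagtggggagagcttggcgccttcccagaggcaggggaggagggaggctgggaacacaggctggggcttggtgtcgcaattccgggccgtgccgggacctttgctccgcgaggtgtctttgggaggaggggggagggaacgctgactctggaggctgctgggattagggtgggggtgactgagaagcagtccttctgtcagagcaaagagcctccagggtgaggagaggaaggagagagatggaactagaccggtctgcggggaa
Nr1h2, chr7:44553916-44554215: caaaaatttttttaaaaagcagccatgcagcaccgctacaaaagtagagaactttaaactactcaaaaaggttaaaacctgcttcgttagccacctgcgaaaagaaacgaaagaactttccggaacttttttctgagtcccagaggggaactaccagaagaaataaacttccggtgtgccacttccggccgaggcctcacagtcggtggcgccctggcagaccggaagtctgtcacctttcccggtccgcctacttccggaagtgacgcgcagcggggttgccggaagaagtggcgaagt
Abca1, chr4:53159846-53160145: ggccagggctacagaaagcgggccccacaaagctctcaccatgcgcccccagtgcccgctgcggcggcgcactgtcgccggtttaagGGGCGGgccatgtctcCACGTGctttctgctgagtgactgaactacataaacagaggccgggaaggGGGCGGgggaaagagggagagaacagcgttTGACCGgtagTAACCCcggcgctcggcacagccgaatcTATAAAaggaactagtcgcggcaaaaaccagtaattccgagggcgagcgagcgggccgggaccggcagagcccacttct
Mylip, chr13:45389492-45389791: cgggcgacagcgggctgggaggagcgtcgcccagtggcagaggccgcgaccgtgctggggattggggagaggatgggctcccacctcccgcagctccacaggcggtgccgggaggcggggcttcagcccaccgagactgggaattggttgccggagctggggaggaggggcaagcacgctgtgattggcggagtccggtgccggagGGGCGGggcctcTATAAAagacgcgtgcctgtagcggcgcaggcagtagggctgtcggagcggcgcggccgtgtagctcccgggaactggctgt
The windows of Nr1h3 and Nr1h2 held none of the motifs. Another Nr1h3 window (chr2:91195067-91195366), not shown, held none either. Both Nr1h3 windows lie inside the gene as annotated and not at its 5′ end (91202834), where no window was searched. Abca1 held 1 E-box, 1 TATA box, 2 GC boxes and a match to the LXR element with 3 mismatches on the opposite strand, which ended 51 bases before the start. Mylip held 1 TATA box and 1 GC box. Of 32817 RefSeq promoters searched, 16.3% held a half-site, 7.15% an E-box, 13.6% a TATA box, 35.6% a GC box and 21.9% a match to the LXR element with at most 3 mismatches, while 0.0152% held an exact one. An entry was found for 7 of the 9 members. The window of Apoc2 held 2 half-sites, that of Pltp 1 TATA box and 1 GC box, and 1 of the 3 windows of Apoe held 2 TATA boxes. A match is a description of letters in this window and not a measured binding site.

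Abca1 and Abcg1 encode the pumps that pass cholesterol to lipid-poor apolipoprotein and to high-density lipoprotein, respectively. Neither was called with iBET in the test without mouse as a term, and Abca1 was called lower in IC once mouse was a term. Abca1 was at 241, 183 and 187 CPM in DMSO Ova and at 229, 174 and 134 in iBET Ova. In IC it was at 215, 208 and 159 CPM with DMSO and at 187, 121 and 108 with iBET. The groups overlapped in both stimulations, but within each mouse the iBET library was the lower one. The log2 fold change was -0.48 in IC (SE 0.23, 95% interval -0.996 to 0.03, adjusted p 0.133), and the fit blocked on mouse gave -0.51 (SE 0.12, adjusted p 0.00379). In Ova it was -0.18 (SE 0.24, adjusted p 0.605), with an interval from -0.69 to 0.34. The IC change was called in 1 of 12 fits without a library, that without mouse A's iBET IC library (-0.76, adjusted p 0.0231). Of the 3 fits without a mouse, 1 called it, that without mouse A (-0.69, adjusted p 0.00503). Without mouse B the adjusted p was 0.536. It was called in 2 of 12 other alternatives, the blocked fits of edgeR and DESeq2.

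Abcg1 (chr17:31057675-31117988, plus strand) overlaps Gm25447 on the same strand. Abcg1 stood at 150, 140 and 152 CPM in DMSO Ova and at 144, 114 and 125 in iBET Ova. With IC it was at 116, 115 and 113 CPM in DMSO and at 121, 94.8 and 118 in iBET. In DMSO every IC library lay below every Ova library, and in DMSO IC the mice lay within a few CPM of each other. The log2 fold change for IC against Ova in DMSO was -0.36 (SE 0.11, unadjusted p 0.00838), in 3 of 3 mice, with an adjusted p of 0.186. Blocking on mouse gave 0.0446 in DESeq2 and 0.0708 in edgeR. With iBET, Abcg1 changed by -0.20 in Ova (95% interval -0.45 to 0.05) and by -0.05 in IC (-0.29 to 0.20), and neither was called (adjusted p 0.2005 and 0.788).

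Mylip encodes a ubiquitin ligase, also known as IDOL, that directs lipoprotein receptors to degradation. It rose with iBET, 1.58-fold in Ova and 1.63-fold in IC. Its level was 84.7, 58.9 and 49.8 CPM in DMSO Ova and 97.2, 107 and 93.9 in iBET Ova. In IC it was 58.2, 48.9 and 43.8 CPM with DMSO and 87.3, 90.6 and 68.1 with iBET. The iBET libraries lay above the DMSO libraries of the same stimulation without overlap, and mouse A had the highest level in DMSO. The log2 fold change was 0.66 (SE 0.18, adjusted p 0.0155) in Ova and 0.71 (SE 0.18, adjusted p 0.00869) in IC. In Ova Mylip missed the threshold when the DMSO library of mouse B (adjusted p 0.0612) or C (0.0714), the iBET library of mouse B (0.0575), or all libraries of mouse B (0.236) or C (0.0858) were left out. In IC it did so without mouse B (0.163).

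Of 11 tested lipoprotein receptors, adaptors and Mylip partners, 3 were higher in Ova and 2 in IC, and none was lower, with a median log2 fold change of 0.13 and 0.20, beside 0.02 and 0.00 over all genes, of which 31.3% and 34.8% were called. Lrp6, a Wnt co-receptor of the same family, rose by 0.68 (SE 0.10, adjusted p 0.000273) in Ova and by 0.64 in IC. Sort1, which encodes a sorting receptor, rose by 0.53 and 0.68. Lrp8, whose product Mylip also targets, rose by 0.66 in Ova (SE 0.22, adjusted p 0.0363). It changed by 0.54 in IC, where it was not called (adjusted p 0.0656).

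Lpl and Pltp act on lipoproteins outside the cell: lipoprotein lipase hydrolyses their triglyceride, and phospholipid transfer protein moves phospholipid between particles. Lpl (chr8:68880491-68907448, plus strand) did not pass the test in any comparison. It stood at 3708, 4339 and 3589 CPM in DMSO Ova and at 4042, 4126 and 3481 in iBET Ova. In IC it was at 3914, 4151 and 3734 CPM with DMSO and at 3797, 4091 and 3441 with iBET. All groups overlapped. The log2 fold change with iBET was 0.00 in Ova (95% interval -0.25 to 0.25) and -0.06 in IC (-0.31 to 0.19), and the sign in Ova turned under other scalings.

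Pltp was at 366, 471 and 370 CPM in DMSO Ova and at 654, 467 and 401 in iBET Ova. In IC it was at 351, 474 and 377 CPM with DMSO and at 643, 582 and 492 with iBET. The iBET and DMSO groups overlapped in Ova and not in IC. Pltp rose 1.43-fold with iBET in IC (log2 fold change 0.51, SE 0.19, adjusted p 0.0482), and in Ova it changed by 0.33 (SE 0.19, adjusted p 0.195). This call failed in 7 of 12 fits that each left out a library, namely DMSO IC of mouse A (adjusted p 0.184) or C (0.119), iBET IC of mouse A (0.154) or B (0.108), DMSO Ova of mouse A (0.061) or C (0.0583), or iBET Ova of mouse B (0.0627). It also failed without any 1 mouse (0.0966 to 0.137) and in 9 of the 12 other alternatives, among them DESeq2 (0.059), its size factors in edgeR (0.0664), no filter on low counts (0.0535) and the deposited signal in limma (0.0663 and 0.0671 at its 2 pseudocounts). It held in the blocked fits of edgeR (0.0225) and DESeq2 (0.022), and with the compared groups alone. Pltp (chr2:164839518-164857711, minus strand) overlaps Ctsa, encoding the lysosomal protease cathepsin A, on the opposite strand, and the strand setting of the counting is not given in the sources used here. Ctsa was also higher in every iBET library, at 415 to 522 CPM, than in the DMSO libraries, at 364 to 401, and reads of the overlap cannot be assigned with certainty.

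Apoe encodes the apolipoprotein that macrophages secrete with effluxed cholesterol, and it differed more between mice than between conditions. It was at 1349, 381 and 80.8 CPM in mice A, B and C in DMSO Ova and at 1187, 302 and 64.2 in DMSO IC. With iBET it was at 454, 462 and 97.9 CPM in Ova and at 396, 345 and 64.4 in IC. Mouse C was the lowest in every group, and mouse A exceeded mouse B by several fold only in the DMSO libraries. The test of iBET without mouse as a term could not place the change. The log2 fold change was -0.82 in Ova, with a 95% interval from -3.39 to 1.74. In IC it was -0.95, with an interval from -3.51 to 1.61. With mouse as a block, edgeR gave -0.30 (SE 0.45, adjusted p 0.637) in Ova and -0.49 (SE 0.45, adjusted p 0.412) in IC. Within mice, the iBET change was -1.57 in Ova and -1.58 in IC for mouse A, 0.28 and 0.19 for mouse B, and 0.28 and 0.00 for mouse C. Only mouse A moved downward, in both stimulations alike.

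A term for mouse, added to the model after these levels had been seen, was called for 5.55% of all genes and for 3 members. These were Apoe (adjusted p 0.00786), Abca1 (0.0086) and Apoc2 (0.014), for which mouse C differed from mouse A by -3.37, -0.59 and -1.37 on the log2 scale. Leaving out mouse A's DMSO Ova library added Nr1h3 (adjusted p 0.0334) to these. Within the 6 iBET libraries, where 3.15% of genes differed between mice, Apoe (adjusted p 2.89e-06), Abca1 (0.00233) and Pltp (0.0452) did. Within the 6 DMSO libraries 24.9% of genes did, with Apoe, Nr1h3, Abca1, Mylip and Pltp among them.

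A term for a change with iBET that differed between mice was called for 8.32% of genes and for Apoe and Pltp. This term too was added after the levels had been seen. Its spread is that between the Ova and IC libraries of the same mouse and drug, not between repeat cultures of a mouse. Apoe had the lowest p of all 11468 genes (adjusted p 1.89e-06), and Pltp an adjusted p of 0.00492. For Pltp too mouse A stood apart: its iBET change was 0.84 in Ova and 0.87 in IC for mouse A, against -0.01 and 0.29 for mouse B and 0.12 and 0.38 for mouse C. Both were still called when mouse A's DMSO Ova library was left out (adjusted p 3.63e-05 and 0.025). The DMSO libraries of mouse A stood apart in other genes too. In them 181 genes, Apoe among them, were over 2-fold higher than in all DMSO libraries of the other mice. In DMSO 0 genes stood apart in this way for mouse B and 39 for mouse C. Within iBET 1 gene did so for mouse A, 0 for mouse B and 41 for mouse C. Gps2, a subunit of a nuclear receptor corepressor complex, was at 127 and 104 CPM in the DMSO libraries of mouse A and between 16.3 and 40.1 CPM in all others. Pltp was not among the 181 genes. In DMSO its level in mouse A (366 and 351 CPM) lay just below that in mouse C (370 and 377). With iBET mouse A had the highest Pltp, at 654 and 643 CPM. The part of mouse A's DMSO difference in the results for Apoe and Pltp was not tested. Without both DMSO libraries of mouse A, the iBET change of Apoe turned to 0.51 in Ova and 0.52 in IC, neither called (adjusted p 0.779 and 0.777), and that of Pltp in IC was 0.40 (adjusted p 0.184).

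**Figure D3:**
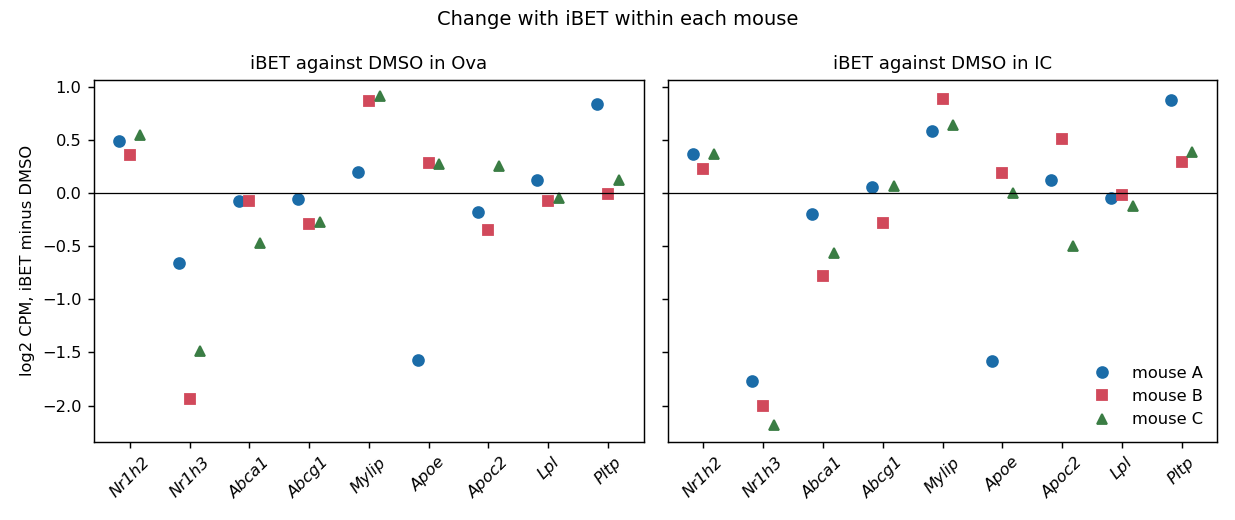
Difference in log2 CPM between the iBET and the DMSO library of the same mouse, for each gene, in Ova (left) and IC (right). Apoe is at -1.57 and -1.58 in mouse A and between 0.00 and 0.28 in mice B and C, and Nr1h3 is below 0 and Nr1h2 and Mylip above 0 in all 3 mice.

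Apoc2, which encodes the activating cofactor of lipoprotein lipase, lay near the limit of detection, at 0.91 to 3.08 CPM from 6 to 57 counts per library. It was at 3.08, 2.99 and 0.91 CPM in DMSO Ova and at 2.70, 2.32 and 1.13 in iBET Ova. In IC it was at 2.78, 1.98 and 1.43 CPM with DMSO and at 3.04, 2.91 and 0.96 with iBET. Mouse C was lowest in every group and the groups overlapped. No change passed the test, and the 95% interval for iBET ran from -1.20 to 1.15 in Ova and from -0.87 to 1.28 in IC. Apoe (chr7:19696109-19699188) and Apoc2 (chr7:19671579-19677941) share a cluster on the minus strand with Apoc1 and Apoc4 between them. Apoc1 had 0 to 5 counts per library and Apoc4 was listed at 0 in all 12, so within the cluster Apoe alone was abundant. Apoc2 overlaps Gm44805 on the same strand, which is not among the genes counted either.

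IC against Ova left the 9 genes without a call in either arm. The largest change in DMSO was in Nr1h3, at 0.77 on the log2 scale (SE 0.28, unadjusted p 0.0163, adjusted p 0.257), higher in 3 of 3 mice although the groups overlapped, since mouse B in Ova (18.7 CPM) lay at the level of mouse C in IC (18.7). DESeq2 with mouse as a block called it (adjusted p 0.0226), and edgeR with the block did not (0.0501). With iBET present, Nr1h3 changed by 0.26 (95% interval -0.39 to 0.91). In DMSO, IC lay below Ova in 3 of 3 mice for Abcg1 (-0.36), Mylip (-0.33) and Apoe (-0.21). In iBET it did so for Abca1 (-0.37), Apoe (-0.33), Mylip (-0.28), Abcg1 (-0.20), Nr1h2 (-0.19) and Lpl (-0.04). The rise of Nr1h3 in iBET (0.26) was also seen in 3 of 3 mice. None of these passed the test, and how many of all genes agreed over 3 mice was not counted. The difference between the arms in the IC response, tested as an interaction, was called for none of the 9 (0 at an unadjusted p under 0.05) and for 0% of all genes in edgeR, with 292 of 11468 at an unadjusted p under 0.05 and 4 called by DESeq2. For Nr1h3 it was -0.51, with an interval from -1.39 to 0.38.

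Other LXR targets moved in both directions with iBET. Of 13 tested, 4 were higher and 2 lower in each stimulation, and their median log2 fold change was 0.21 in Ova and 0.13 in IC. The background for this list and the ones that follow is the 31.3% of all genes called in Ova and 34.8% in IC, and the medians of 0.02 and 0.00 over all genes. Acsl3, an acyl-CoA synthetase gene, rose by 1.41 (SE 0.13, adjusted p 1.25e-05) in Ova and by 1.66 in IC. Arl4c, a small GTPase gene linked to cholesterol transport, rose by 1.06 and 1.29: it was at 119 to 128 CPM in DMSO Ova and at 243 to 276 in iBET Ova. Mertk, the receptor for uptake of apoptotic cells, and Elovl5, a fatty acid elongase, rose too. Plin2, which coats lipid droplets, fell by 0.77 and by 0.80, and the desaturase Scd2 fell by 0.53 and by 0.46. Srebf1, the master regulator of fatty acid synthesis and a classical LXR target, was not called (-0.31 in Ova, adjusted p 0.171). The rises of Mertk, Elovl5, Arl4c and Acsl3, like the falls, were seen in 3 of 3 mice.

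Of 14 tested LXR partners and co-regulators, 2 were lower in Ova, and 2 were lower and 2 higher in IC, with a median of -0.07 in each. Tbl1xr1, a corepressor exchange factor, fell by 1.28 in Ova (SE 0.11, adjusted p 6.18e-06) and by 1.07 in IC, and its relative Tbl1x fell by 0.35 and 0.31. The deacetylase Hdac3 (0.59) and the coactivator Ncoa1 (0.30) rose in IC. The obligate partner Rxra was not called (-0.42, adjusted p 0.0861, in Ova), nor was Rxrb. Among the related PPAR receptors Pparg fell from between 49.5 and 75.5 CPM in the DMSO libraries to between 10.8 and 17.7 in the iBET libraries, a log2 fold change of -2.23 in Ova and -2.09 in IC. Ppard moved the other way, by 1.41 and 1.65, from 3.92 ± 0.94 to 10.3 ± 1.36 CPM in Ova. Like Nr1h3, Pparg fell with iBET, and like Nr1h2, Ppard rose.

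Of 6 tested partners of lipoprotein lipase, 1 was higher and 1 lower in each stimulation, with medians of -0.39 in Ova and -0.16 in IC. Angptl4, which encodes a secreted inhibitor of the enzyme, fell by 2.87 in Ova (SE 0.45, adjusted p 0.000509) and by 2.99 in IC, from a low level of 2.24 to 4.22 CPM in DMSO to at most 0.55 with iBET (1 to 10 counts per library). Sel1l, needed for the enzyme to leave the endoplasmic reticulum, rose by 0.30 and 0.43. Of 14 listed genes of the apolipoprotein group other than the members only Apobr, which encodes a receptor and not an apolipoprotein, passed the filter. It fell by 1.39 in Ova (adjusted p 0.0473) and by 1.51 in IC (adjusted p 0.0306), and it too was far higher in the DMSO libraries of mouse A (392 and 298 CPM) than in those of the other mice (112 to 139), against 47.3 to 90.9 with iBET. Apobr missed the threshold when mouse A's DMSO library of the same stimulation was left out (adjusted p 0.207 for Ova, 0.179 for IC).

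Of 10 tested other ABC transporters of the A and G families, 1 was higher and 1 lower in Ova, and 2 were higher and 1 lower in IC, with medians of -0.09 and 0.26. Abca5 rose by 1.09 in Ova and 1.49 in IC, Abcg2 fell by 1.02 and 0.97, and Abca3 rose in IC (0.38, adjusted p 0.0466). Of 14 genes of intracellular cholesterol handling, 2 were higher and 1 lower in Ova, and 4 higher and 1 lower in IC, with medians of -0.02 and 0.13. Gramd1b, a sterol transporter between plasma membrane and endoplasmic reticulum, fell by 0.92 and 1.27, while its relative Gramd1a rose by 0.64 and 0.83 and the oxysterol-binding protein gene Osbpl2 by 0.71 and 0.64. Nceh1 and Osbpl1a rose in IC. Of 15 genes of sterol synthesis and its control, 3 were higher and 3 lower in Ova, and 5 were higher and 0 lower in IC, with medians of 0.18 and 0.24. Insig1, which retains the sterol sensor complex, rose by 0.43 and 0.73, Sqle by 0.55 and 0.62 and Mvd by 0.73 and 0.98, and Dhcr7 rose by 0.86 in IC. Hmgcs1 (-0.42), Insig2 and Fdft1 were lower in Ova. IC against Ova gave no call in any of these lists, in DMSO or in iBET. The smallest adjusted p of any list there was that of Ncoa1 in DMSO (-0.39, adjusted p 0.0614), and those of Hmgcs1 (-0.44, adjusted p 0.124), Mertk (-0.95, adjusted p 0.128) and Gramd1b (0.31, adjusted p 0.206) led their own lists. In iBET the lowest were those of Ncoa1 (-0.27, adjusted p 0.395) and Cyp27a1 (-0.69, adjusted p 0.473).

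With iBET, these lists held 27 calls in Ova and 30 in IC, and none changed sign in any alternative. In Ova 15 were kept in every fit without 1 library, and those of Abca5, Apobr, Fdft1, Hmgcs1, Insig1, Insig2, Lrp8, Mertk, Mvd, Scd2, Sel1l and Sort1 were not, with their highest adjusted p between 0.0619 (Hmgcs1) and 0.209 (Insig2). In IC 22 were kept, and those of Abca3, Apobr, Hdac3, Idi1, Nceh1, Ncoa1, Scd2 and Tbl1x were not (0.0685 for Tbl1x to 0.22 for Abca3). The other alternatives kept all libraries, used the compared groups alone, or left out both DMSO libraries of mouse A. In these, 17 of the 27 calls in Ova and 24 of the 30 in IC passed throughout. Insig1 in Ova and Abca3 in IC were lost most often there, in 8 of 12 each. Without each mouse in turn, 11 calls in Ova and 14 in IC passed throughout. The calls of Acsl3, Arl4c, Plin2, Pparg, Ppard, Tbl1xr1, Angptl4, Lrp6 and Gramd1b were among them in both stimulations.

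**Figure D4:**
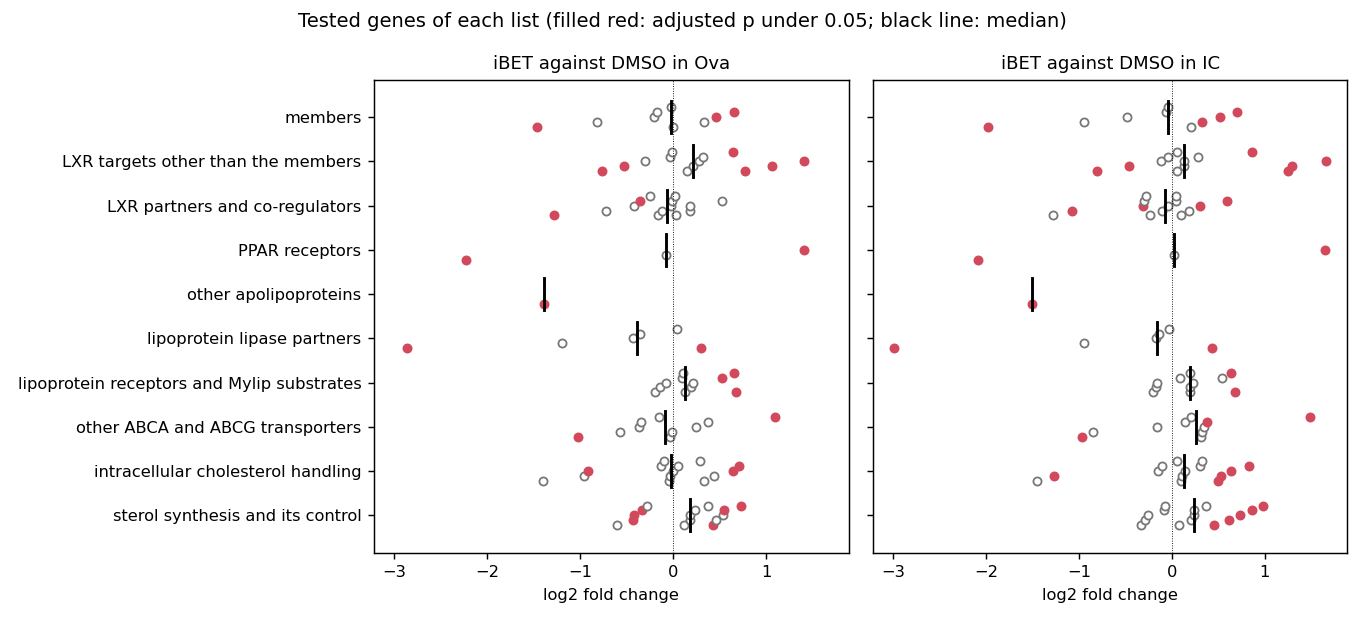
Log2 fold change with iBET of every tested gene of each list, in Ova (left) and IC (right). Filled red points have an adjusted p under 0.05 in edgeR and black lines are medians. Called genes lie on both sides of 0 in several lists, with Angptl4 and Pparg farthest to the left.

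Genes whose levels followed each member most closely over the 12 libraries were picked by the root mean square (RMS) difference of centred log2 CPM, among 9356 genes with a mean of at least 5 CPM. For Nr1h3, itself varying with an RMS of 0.95, they were Sdc1 (RMS difference 0.25), which encodes syndecan-1, and Prdm1 (0.28), which encodes the repressor Blimp-1. Sdc1 was at 99.1 to 146 CPM in DMSO Ova, 156 to 241 in DMSO IC, 36.9 to 61.0 in iBET Ova and 49.6 to 80.9 in iBET IC. Because Sdc1 was picked for its likeness to Nr1h3 over these libraries, their shared order of groups is no separate result. Becn1, the autophagy gene, was closest to Nr1h2 (0.05, beside its own 0.22), and Csgalnact2 to Mylip (0.11 beside 0.43). Crlf2 and Psap were closest to Pltp (0.11 each, beside 0.30), Rab7b and Mndal to Abca1 (0.16 each, beside 0.35), Timm10b and Nit1 to Abcg1 (0.09 and 0.11, beside 0.19), and Reep3 and Erlin2 to Lpl (0.07 each, beside 0.10). Apoc2 was followed most closely by Cd5l, itself an LXR target, and Fabp5 (0.22 and 0.26, beside 0.59): Cd5l was at 126 to 166 CPM in mice A and B and at 52.4 in mouse C in DMSO Ova. Aif1 and Atp6v0d2 were closest to Apoe (0.80 each, beside 1.46). These are descriptions over 12 libraries that share drug, stimulus and mouse.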

How the data were processed

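RNA from 12 BMDM libraries was prepared with a stranded total RNA kit and sequenced as paired reads. The authors trimmed reads with Trim Galore, aligned them to mm10 with HISAT2 and counted them per gene with featureCounts, and the deposited table holds whole-number counts per gene symbol. Annotation release, strand setting and treatment of multiply mapped reads are not given in the sources used here. The authors also deposited a normalized signal, which equalled the counts divided by DESeq2 size factors (largest relative gap 4.89e-15). It served only as an alternative.

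Groups and mice were taken from the labels. Counts were filtered with filterByExpr (24421 to 11468 genes), scaled by TMM and tested with edgeR's quasi-likelihood test (edgeR 4.0.16, R 4.3.3), with 1 term per group over all 12 libraries, Benjamini-Hochberg adjustment over all genes tested and a threshold of 0.05. The SE is the size of the log2 fold change divided by the root of F, and 95% intervals use the t quantile of the fitted degrees of freedom. Within-mouse changes subtract log2 CPM values computed with prior count 2. Same-mouse libraries deviated from their group means with correlations of -0.07 to 0.54 (18 pairs), those of different mice with -0.50 to 0.27 (36 pairs). The pairing comes from the animals in the labels, so the fit with mouse as a block is given where it moved a call. The edgeR script was tested on simulated counts. Alternatives used DESeq2 1.42.0, limma 3.58.1 (pseudocount 1 or 0.5) and sva 3.50.0.

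Depth was 7.55 M to 17.4 M counts per library, and 1.77 M outside Rn45s in the shallowest. Gene positions are from GENCODE for GRCm38/mm10 and promoters from RefSeq (GRCm38.p6). The members, gene lists and markers were chosen with earlier results of these data known. Genes named from a list are its called members, at most 4 per comparison by size of change, or otherwise the one with the lowest adjusted p. Elovl5, Scd2, Hmgcs1, Fdft1, Nceh1, Srebf1, Rxra, Rxrb, Gps2, Ctsa and Cd5l, and the terms for mouse, were added after their values were seen.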

Additional observations from a re-analysis of the deposited data

Results flagged for a closer look

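The change with iBET differed between mice for Apoe (adjusted p 1.89e-06 in edgeR, for a term added after the levels had been seen). In log2 CPM it was -1.57 in Ova and -1.58 in IC in mouse A, and between 0.00 and 0.28 in mice B and C. The same term was called for Pltp (adjusted p 0.00492), which changed by 0.84 and 0.87 in mouse A and by -0.01 to 0.38 in the others. With 1 library per mouse and group, a mouse and its culture cannot be told apart. No outlier test was run within the groups of 3, though the fits were repeated without each library in turn.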

How the results depend on the processing

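Of the 7 calls among the members, none changed sign under any alternative. With iBET in Ova 3 members were called in every alternative that kept all libraries or used the compared groups alone. The exception was a threshold of 0.01, at which 2 were called. In IC 4 were called, 3 to 5 in those alternatives and 2 at that threshold. Leaving out 1 library or 1 mouse gave 0 to 3 calls in Ova and 1 to 4 in IC, and the lowest counts came without mouse B. The replicate block on mouse called 3 members in Ova and 5 in IC with either tool, adding Abca1 in IC (-0.51 in edgeR), and DESeq2 with the replicate block called 2 for IC against Ova in DMSO, Nr1h3 (0.76) and Abcg1 (-0.36). Against the main edgeR fit the block changed no other call. Within DESeq2 it also brought in Pltp with iBET in IC, at an adjusted p of 0.022 with the block and 0.059 without it. Over all genes, IC against Ova in DMSO gave 140 calls, 315 with the block in edgeR, 270 with DESeq2, 427 with both, 504 with 1 surrogate variable, 5 with the compared groups alone and 0 to 159 without 1 library or mouse. In iBET the count was 40, and 85, 103, 176, 130 and 99 in those alternatives, 147 without both DMSO libraries of mouse A and 0 to 305 without 1 library or mouse. With iBET against DMSO it was 3593 in Ova and 3987 in IC, and 1310 to 4732 and 1769 to 4914 over all alternatives, lowest without mouse B.

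Sign changes were limited to changes that passed no test, and their cause was not tested. With 1 surrogate variable Apoe changed by 0.004 (IC in DMSO), 0.04 (IC in iBET), 0.34 (iBET in Ova), 0.37 (iBET in IC) and 0.03 (interaction), and Apoc2 by 0.03 (iBET in Ova). Without both DMSO libraries of mouse A, an alternative chosen after seeing the data, Apoe changed by 0.51 (iBET in Ova), 0.52 (iBET in IC) and 0.005 (interaction), Apoc2 by 0.05 and Lpl by -0.07 (iBET in Ova), Mylip by -0.03 (interaction), and Lpl by -0.009 and Pltp by 0.02 (IC in DMSO). Lpl with iBET in Ova was -0.04 with DESeq2 and with its size factors in edgeR, -0.03 with DESeq2 and the replicate block, with at least 10 counts in every library and with the deposited signal in limma at either pseudocount, -0.05 with the compared groups alone and -0.02 without Rn45s. Pltp for IC in DMSO was 0.001 with at least 10 counts in every library.

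Ranges that crossed 0 without 1 library or mouse were, for IC in DMSO, -0.11 to 0.02 for Nr1h2, -0.19 to 0.06 for Abca1, -1.68 to 1.12 for Apoe, -0.54 to 0.57 for Apoc2, -0.03 to 0.11 for Lpl and -0.14 to 0.12 for Pltp. For IC in iBET they were -0.77 to 0.13 for Apoe, -0.08 to 0.51 for Apoc2 and -0.11 to 0.02 for Lpl. With iBET in Ova they were -1.36 to 0.50 for Apoe, -0.53 to 0.57 for Apoc2 and -0.09 to 0.09 for Lpl. With iBET in IC they were -0.11 to 0.06 for Abcg1, -1.47 to 0.50 for Apoe, -0.07 to 0.52 for Apoc2 and -0.12 to 0.005 for Lpl. For the interaction they were -0.13 to 0.21 for Mylip, -1.45 to 1.35 for Apoe, -0.45 to 0.73 for Apoc2 and -0.15 to 0.01 for Lpl. All group levels moved by less than 1 SD with the deposited signal in place of CPM. Depth limits Apoc2 most, at 6 to 57 counts per library, and then Nr1h3, at 19 to 276.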
